A study of Homo sapiens with 12 samples.

Results

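SREBP2 regions were missing from the XY018 peak list at 1465 active sites that SREBP2 shared with RORγ in HCC70 cells, an established line of basal-like triple-negative breast cancer. Each of these sites was an SREBP2 region called with vehicle on chromosomes 1 to 22 or X that overlapped, by at least 1 bp, a RORγ region and an H3K27ac region called with vehicle, and that overlapped no SREBP2 region called with XY018. They were 1465 of 117441 SREBP2 vehicle regions and 1465 of 23419 active co-bound sites. The other 21954 active co-bound sites kept an SREBP2 region with XY018 and are called kept co-bound sites here. A further 6248 acetylated SREBP2 sites had no RORγ region with vehicle and no SREBP2 region with XY018. The lists include weak calls, with a q over 0.05 at 9.43% of the SREBP2 and 19.4% of the RORγ vehicle regions. For both factors the paper reported fewer sites, at stricter thresholds.

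HCC70 cells in serum-containing medium received vehicle or XY018, a small-molecule antagonist of RORγ, for 24 h. The labels state 5 µM XY018, and the published methods state a lower concentration. Chromatin immunoprecipitation sequencing was performed with antibodies against SREBP2, RORγ and H3K27ac under both treatments, giving 6 immunoprecipitated libraries, 1 per group. The 6 input libraries were not used here. The cells are 1 line, and with 1 library per group no difference between treatments has a replicate check and no p-value was computed. Depth, recovered from the peak values, was between 3.65 and 6.16 tags per kb. With vehicle and with XY018 it was 5.56 and 5.92 for SREBP2, 4.04 and 3.65 for RORγ, and 6.16 and 5.62 for H3K27ac. As a check of the cell type, an H3K27ac region lay at the promoter of 6 of 8 basal epithelial marker genes under each treatment. These were KRT5, KRT17, EGFR, EPCAM and CDH1 under both, TP63 with vehicle alone and KRT6A with XY018 alone, and KRT14 had none. One was also at 1 of 2 hormone receptor promoters (ESR1), 1 of 3 immune promoters and 1 of 2 stromal promoters (COL1A1).

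SREBP2 is the transcription factor that turns on genes of cholesterol synthesis and uptake. Its precursor sits in the membrane of the endoplasmic reticulum and is cut free when sterols run low, and the released part binds sterol regulatory elements, usually beside partner factors such as SP1 and NF-Y. RORγ is a nuclear receptor that can bind as a monomer to a single AGGTCA half-site. H3K27ac is the acetylation that CBP and p300 place on histone H3 at active promoters and enhancers.

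The windows below show what DNA the strongest of these sites held. Each runs 100 bp to either side of the SREBP2 summit on the plus strand of GRCh37, which is the hg19 build the files use, and is named for the nearest transcript start of a protein-coding gene. Capitals mark the SRE (TCACNCCAC), the AGGTCA half-site, the AP-1 motif (TGANTCA), the SP motif (GGGCGG) and the E-box (CACGTG), on either strand. The 4 strongest windows in promoters that overlapped no UTR were these.
MYL9 chr20:35169149-35169349: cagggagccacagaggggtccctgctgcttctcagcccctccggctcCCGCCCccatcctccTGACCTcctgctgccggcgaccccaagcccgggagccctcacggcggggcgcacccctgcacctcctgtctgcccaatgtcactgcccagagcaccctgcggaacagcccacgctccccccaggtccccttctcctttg
RBMX chrX:135991421-135991621: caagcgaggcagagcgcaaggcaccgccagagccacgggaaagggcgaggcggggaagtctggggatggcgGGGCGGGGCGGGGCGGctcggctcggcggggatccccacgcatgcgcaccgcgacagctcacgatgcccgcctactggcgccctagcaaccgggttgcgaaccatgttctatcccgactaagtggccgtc
MSLNL chr16:828566-828766: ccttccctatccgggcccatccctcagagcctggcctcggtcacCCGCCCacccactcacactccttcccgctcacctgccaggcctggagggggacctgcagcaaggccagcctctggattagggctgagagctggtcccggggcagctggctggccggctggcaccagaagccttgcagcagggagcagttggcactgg
TAPBP chr6:33272173-33272373: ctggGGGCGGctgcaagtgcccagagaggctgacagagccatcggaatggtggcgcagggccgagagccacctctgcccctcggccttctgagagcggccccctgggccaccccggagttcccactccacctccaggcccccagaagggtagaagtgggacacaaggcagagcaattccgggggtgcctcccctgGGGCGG

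Strong windows outside promoters that overlapped no UTR follow. The stronger intronic site near MATN2 is described without its sequence. The window named for LYSMD4 lay in an exon of MEF2A and held a run of CAG triplets, and the YBX2 window lay in an exon of YBX2.
YBX2 chr17:7192801-7193001: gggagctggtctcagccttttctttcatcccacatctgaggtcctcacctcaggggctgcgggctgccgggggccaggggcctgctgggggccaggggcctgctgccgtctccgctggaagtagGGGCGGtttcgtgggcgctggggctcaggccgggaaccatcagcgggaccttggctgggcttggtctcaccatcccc
LYSMD4 chr15:100252671-100252871: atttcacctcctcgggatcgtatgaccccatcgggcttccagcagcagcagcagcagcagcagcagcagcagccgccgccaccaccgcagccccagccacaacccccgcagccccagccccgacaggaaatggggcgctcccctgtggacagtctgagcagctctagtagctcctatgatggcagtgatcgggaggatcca
OSBPL11 chr3:125311955-125312155: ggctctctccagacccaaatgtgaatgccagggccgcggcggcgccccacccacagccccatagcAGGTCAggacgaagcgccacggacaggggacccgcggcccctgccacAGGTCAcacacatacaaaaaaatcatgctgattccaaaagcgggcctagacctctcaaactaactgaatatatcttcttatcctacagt
GALR3 chr22:38213787-38213987: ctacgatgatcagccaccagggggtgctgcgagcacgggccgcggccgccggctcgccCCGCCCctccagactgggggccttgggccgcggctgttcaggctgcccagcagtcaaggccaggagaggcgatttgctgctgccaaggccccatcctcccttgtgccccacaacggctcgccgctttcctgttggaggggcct

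The next windows belong to sites named in the results, of which PER1 holds an SRE. Both were chosen after their values were seen.
FADS1 chr11:61596299-61596499: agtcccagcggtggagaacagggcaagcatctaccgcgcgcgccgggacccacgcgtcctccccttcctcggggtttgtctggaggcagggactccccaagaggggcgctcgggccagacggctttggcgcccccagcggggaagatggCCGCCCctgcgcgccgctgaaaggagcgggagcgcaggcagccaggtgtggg
PER1 chr17:8047074-8047274: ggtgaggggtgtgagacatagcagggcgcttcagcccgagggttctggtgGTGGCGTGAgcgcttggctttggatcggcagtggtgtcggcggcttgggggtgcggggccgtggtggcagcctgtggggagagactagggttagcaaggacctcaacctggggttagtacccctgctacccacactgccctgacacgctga
SP motifs stood in 7 of these 10 windows, the AGGTCA half-site in 2 (MYL9 and OSBPL11), the SRE in 1 (PER1) and the AP-1 motif in none.

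The sites that lost SREBP2 calls were the weak end of the co-bound set. Because the sites were chosen by the calls in these lists, made on fold and p of vehicle and on the missing SREBP2 call with XY018, the values that follow are descriptions. Their median SREBP2 vehicle fold over background was 4.51 (quartiles 3.45 and 6.50), against 12.8 (9.69 and 16.7) at kept co-bound sites. At the summit they held a median of 11 fragments, against 32. Their regions had a median width of 294 bp, against 706 bp. The other 2 marks were weaker too, with a median RORγ fold of 3.81 against 11.0 and a median H3K27ac fold of 6.45 against 13.4. The RORγ vehicle regions had a median of 7 fragments at their summits, against 22.

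Not called with XY018 were 60.2% of all SREBP2 vehicle regions but 6.26% of the active co-bound sites, and within the latter the share fell with strength. In the lowest of 10 classes of SREBP2 fold, 45.2% of sites (95% binomial interval 43.2 to 47.3) were not called with XY018. The share was 10.1% in the second class and 1.02% in the fifth. In each of the top 2 classes, with 2342 and 2341 sites, none was, and the upper limit of the interval was 0.157%. The lowest 2 classes held 1295 of the 1465 sites, or 88.4%. A q of at most 1e-05 was reached by 47.0% of them, against 98.4% of kept co-bound sites, and 91 sites had a q over 0.05.

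**Figure D1:**
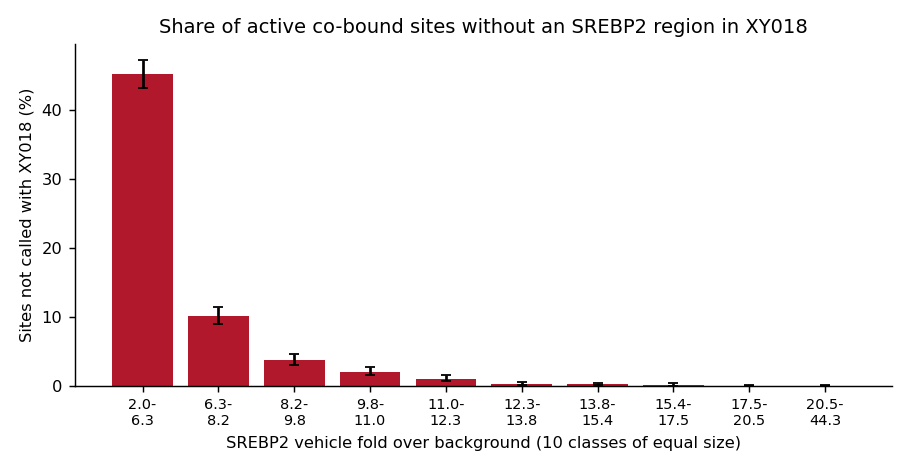
Share of active co-bound sites without an SREBP2 region in the XY018 library (y axis, percent) in 10 classes of SREBP2 vehicle fold over background (x axis); bars are shares of about 2342 sites and whiskers are 95% exact binomial intervals. The share falls from 45.2% in the weakest class to 0 in the 2 strongest.

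A missing call was often close to one that was made. The gap to the nearest SREBP2 XY018 region had a median of 1723 bp (quartiles 362 and 7009 bp), and 605 of the sites (41.3%) had one within 1000 bp. Within 100 bp there were 105, and 2 touched an XY018 region without sharing a base. At the edge of the rule, the sites near DSN1 and PTPDC1 were 0 bp from an XY018 region with 10 SREBP2 vehicle fragments each, and the site near RPL8, with 9, was 1 bp away. Just outside it, the sites near ERICH5, BCAR1 and FAM20C shared 1, 4 and 6 bp with an XY018 region and had 8, 12 and 8 fragments. An XY018 region at the genome-wide background could be called with 4 fragments. How many SREBP2 fragments the uncalled sites held with XY018 is not in the peak lists, so a missing call sets no level.

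RORγ calls were kept with XY018 less often than at kept co-bound sites. Here and below, a call was kept at a site only if an XY018 region overlapped the SREBP2 region itself. A RORγ or H3K27ac XY018 region lying beside the site, without overlap, counts as absent. Of the 1465 sites, 630 (43.0%, interval 40.5 to 45.6) overlapped a RORγ XY018 region, against 95.8% (95.6 to 96.1) of kept co-bound sites. Of all RORγ vehicle regions, 36.4% themselves overlapped a RORγ XY018 region, which is an unlike measure. With regions of q of at most 1e-05 alone in every list, the rule picked its sites anew, and not all of them were among the 1465. The shares were then 60.2% (57.2 to 63.2) of 1056 sites and 94.2% of 16946 kept sites. The share was 48.3% in promoters and 40.5% elsewhere. A gap remained within classes of strength. Averaged over 10 classes of RORγ vehicle fold, the share was 37.8 percentage points lower than at kept co-bound sites (difference −37.80, 95% interval −40.53 to −35.07). In 5 by 5 classes of RORγ and SREBP2 vehicle fold, an alternative added after the data were seen, the difference was −23.72 points (−28.00 to −19.45).

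Within the sites, RORγ calls followed strength. From the lowest to the highest of 5 classes of RORγ vehicle fold, 31.4%, 33.8%, 32.2%, 46.7% and 70.3% were kept. At kept co-bound sites in the same classes the shares were 73.6%, 69.9%, 77.3%, 84.6% and 98.6%. No class interval of the first series reached the interval of the second. The top class ran from a RORγ fold of 5.04 to 39.9, so the groups need not be alike in strength within it.

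H3K27ac calls were kept more often. An H3K27ac XY018 region overlapped 902 of the 1465 sites (61.6%, interval 59.0 to 64.1), against 88.1% (87.6 to 88.5) of kept co-bound sites. The share was 70.5% (69.3 to 71.6) at the acetylated sites without RORγ that lost SREBP2 calls. Of all H3K27ac vehicle regions, 69.3% themselves overlapped an H3K27ac XY018 region, again an unlike measure. It was kept at 73.2% (68.9 to 77.1) of the promoter sites and 56.2% (53.0 to 59.3) of the others. Averaged over 10 classes of H3K27ac vehicle fold, the share was lower than at kept co-bound sites by 11.1 points (difference −11.13, interval −13.54 to −8.72). That difference rested on which properties were matched. It was −3.00 points (−7.25 to 1.24) in joint classes of H3K27ac and SREBP2 fold and −2.57 points (−5.17 to 0.03) in classes of H3K27ac fold by GC content, and both of these intervals include 0.

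**Figure D2:**
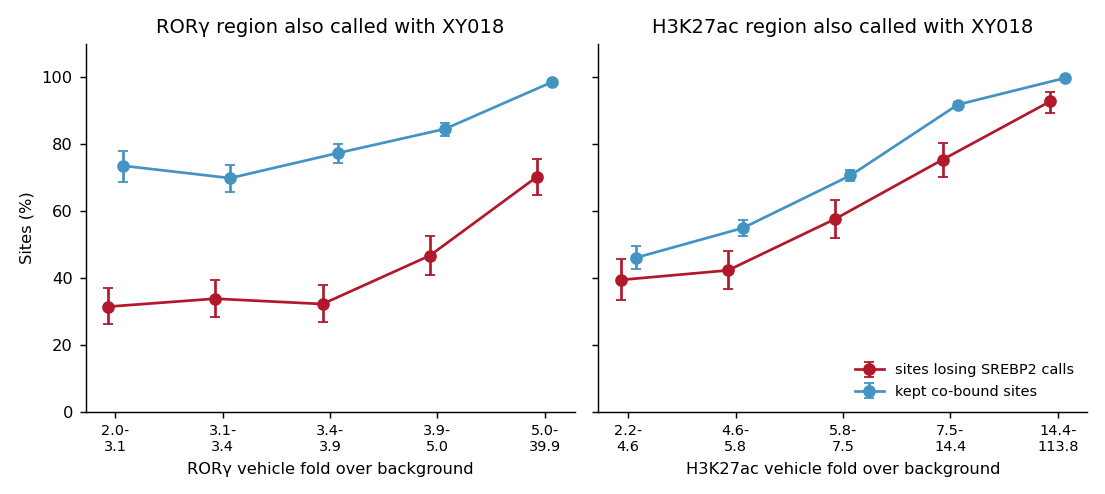
Share of sites overlapped by a RORγ region (left) or an H3K27ac region (right) called with XY018 (y axis, percent), in 5 classes of the vehicle fold of that antibody (x axis). Shown are the 1465 sites losing SREBP2 calls (red) and the 21954 kept co-bound sites (blue), and whiskers are 95% exact binomial intervals. The RORγ lines stay well apart in every class, and the H3K27ac lines lie closer, with overlapping intervals in the weakest class.

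The 2 readouts related to SREBP2 strength in different ways. From the lowest to the highest of 3 equal classes of the sites' SREBP2 vehicle fold, RORγ calls were kept at 23.5% (19.8 to 27.5), 39.3% (35.0 to 43.8) and 66.2% (61.8 to 70.4). H3K27ac calls were kept at 62.4%, 60.7% and 61.7%, with intervals that all overlap. Counted together, 377 sites kept both calls, 253 kept RORγ alone, 525 kept H3K27ac alone and 310 kept neither. The 310 sites with neither had the lowest promoter share (16.1%) and a median GC content of 61.2%, and the 377 with both had 39.8% and 67.7%. An H3K27ac vehicle region that also held a kept SREBP2 site covered 285 of the 1465 (19.5%), so acetylation there is not measured separately from that of the neighbour.

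**Figure D3:**
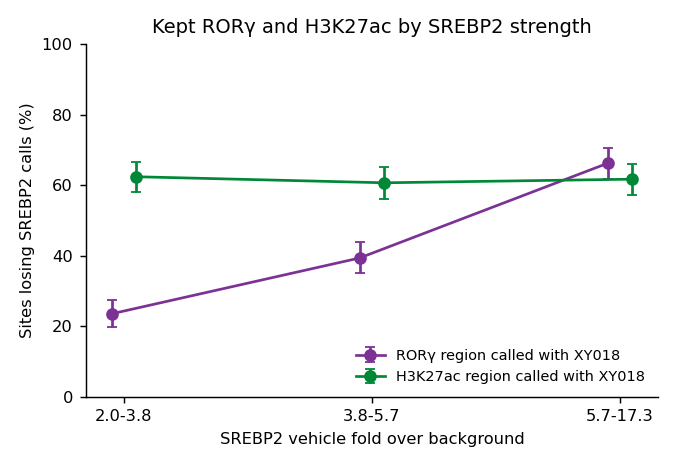
Share of the 1465 sites with a RORγ region (purple) or an H3K27ac region (green) called with XY018 (y axis, percent) in 3 equal classes of SREBP2 vehicle fold (x axis); whiskers are 95% exact binomial intervals. RORγ rises from 23.5% to 66.2%, and H3K27ac stays between 60.7% and 62.4%.

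Where a region was called in both libraries, its summit fragments could be compared, each scaled to the genome-wide background of its library. The H3K27ac ratio of XY018 to vehicle had a median of 1.05 (1.02 to 1.10) at the 902 sites, against 1.20 (1.19 to 1.21) at kept co-bound sites. Unscaled, the median at the sites was 0.955 (0.927 to 1), so its side of 1 depends on the scaling. A ratio under 1 was found at 45.6% of the 902, against 33.7% of all H3K27ac regions called in both libraries. In promoters the medians were 1.06 (1.002 to 1.10) and 1.27 (1.27 to 1.28), and elsewhere they were 1.03 (0.996 to 1.10) and 1.02 (1.004 to 1.02). Within classes of vehicle fragments, promoter sites were lower than kept co-bound promoters by 0.25 on the log2 scale (difference −0.25, −0.33 to −0.17). With GC content added to the classes the promoter difference was −0.07 (−0.16 to 0.01). Outside promoters it was −0.005 (−0.062 to 0.053), and 0.14 (0.08 to 0.20) with GC content. Over all sites it was −0.13 (−0.18 to −0.09) and turned to 0.055 (0.007 to 0.104).

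The RORγ ratio had a median of 1.11 (1.03 to 1.11) at 630 sites and 1.01 at kept co-bound sites, and 45.2% were under 1, against 43.8% of all RORγ regions called in both. Unscaled, the median at the sites was 1 (0.929 to 1). These medians mix strengths, and a weak region is counted only if it was called again. Within classes of vehicle fragments the log2 ratio was lower at the sites by 0.31 (difference −0.31, −0.36 to −0.25), and the difference was −0.34 (−0.40 to −0.29) with GC content added. The median ratio fell with RORγ vehicle fragments in both groups. From the lowest to the highest of 4 classes it was 1.55, 1.11, 0.983 and 0.804 at the sites, and 1.77, 1.42, 1.23 and 0.987 at kept co-bound sites. The top class held 168 of the sites (interval of the median 0.737 to 0.879). It ran from 11 to 71 fragments, so the groups need not be alike in strength within it.

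The strongest of the sites carried about as many SREBP2 fragments as the median kept site, between 26 and 42. YBX2 encodes a Y-box RNA-binding protein of germ cells, and the site in its exon (chr17:7192720-7193153) had the highest fold, 17.3. It held 34 SREBP2 fragments with vehicle (95% Poisson interval 23.5 to 47.5), 20 RORγ fragments with vehicle and 15 with XY018. Its H3K27ac fragments were 52 and 53, given here and below with vehicle first. Its nearest SREBP2 XY018 region was 4241 bp away, and both other marks stayed.

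MYL9 encodes a myosin regulatory light chain. The site in its promoter window (chr20:35169066-35169487) had 38 SREBP2 fragments (26.9 to 52.2), with 31 and 30 RORγ fragments. The RORγ vehicle summit lay 603 bp from the SREBP2 summit, outside the SREBP2 region. H3K27ac had 52 fragments with vehicle, at a summit 692 bp from the SREBP2 summit, and no region with XY018. An SREBP2 XY018 region lay 158 bp away.

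The site named for RBMX (chrX:135991299-135991847) lay 28598 bp from the nearest protein-coding start, in the promoter window of a gene with no symbol. It had 30 SREBP2 fragments, 10 and 10 RORγ fragments, and 17 and 21 H3K27ac fragments. TRPM4 encodes a calcium-activated cation channel, and the site 1 bp from its start (chr19:49660843-49661343) had 30 SREBP2 fragments, 5 and 7 of RORγ and 80 and 75 of H3K27ac. At both sites the intervals of vehicle and XY018 overlapped for RORγ and for H3K27ac.

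At 3 more of the 8 strongest, where H3K27ac had 15 to 25 vehicle fragments, no H3K27ac XY018 region overlapped the site while a RORγ XY018 region did. These were MSLNL, with 33 SREBP2, 16 H3K27ac and 8 and 9 RORγ fragments, ARAP1, with 26, 15, and 7 and 7, and the site near MATN2 in an intron of LAPTM4B, with 42, 25, and 6 and 16. At ARAP1 the RORγ summits of vehicle and XY018 lay 292 bp apart, and that of vehicle was 283 bp from the SREBP2 summit. Over all 8 strongest sites, 7 kept a RORγ call and 4 kept an H3K27ac call. The 1 not described had 5 RORγ fragments and no RORγ region with XY018, and kept H3K27ac.

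**Figure D4:**
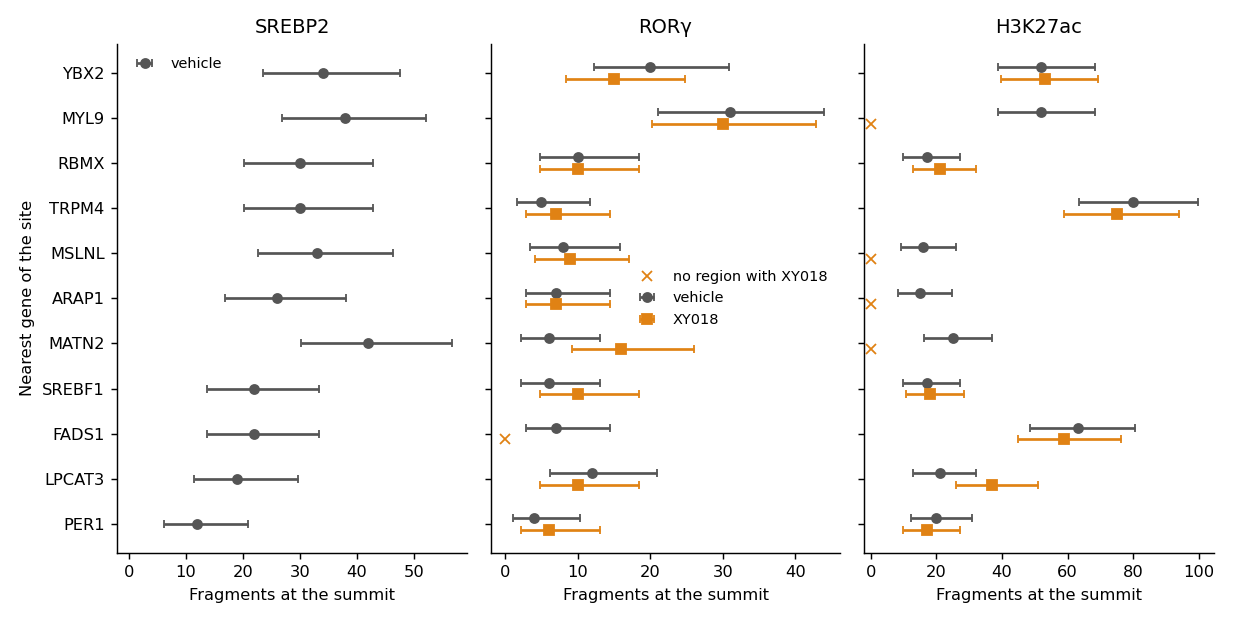
Fragments at the summit (x axis) of SREBP2, RORγ and H3K27ac with vehicle (grey circles) and XY018 (orange squares) at 11 sites named for their nearest gene (y axis): 7 of the 8 of highest SREBP2 fold, then SREBF1, FADS1, LPCAT3 and PER1. Whiskers are 95% Poisson intervals, crosses at 0 mark no XY018 region rather than 0 fragments, and no site has an SREBP2 XY018 region; RORγ has no XY018 region at 1 of the 11 (FADS1) and H3K27ac at 4, and the 1 of the 8 strongest that is not shown has no RORγ XY018 region and keeps H3K27ac.

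A site was nearest to the start of 1219 of 20090 protein-coding genes (6.07%), of which 1033 had 1 site and 145 had 2. Of 21 cholesterol biosynthesis enzymes 0 were among them, and at 6.07% a list of this size would hold few. By contrast 15 of the 21 (71.4%) were nearest to a kept co-bound site, against 52.5% of all genes. Between 10 kb upstream and the end of these 21 genes there were 27 kept sites and 1 that lost its call, beside a background of 6.26% of co-bound sites. That site, in the TM7SF2 window (a sterol reductase gene), lay in the promoter of the adjacent gene VPS51. It had 19 SREBP2 fragments, 6 and 8 RORγ fragments, and 18 and 10 H3K27ac fragments. Its RORγ vehicle summit lay 261 bp from the SREBP2 summit.

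Of 15 genes that control SREBP processing and sterol uptake, SREBF1 alone had a site. SREBF1 encodes SREBP1, the relative of SREBP2 that drives fatty acid synthesis. In its promoter (chr17:17720535-17720895) SREBP2 had 22 fragments (13.8 to 33.3), and the nearest XY018 region lay 243 bp away. RORγ had 6 and 10 fragments, and H3K27ac 17 and 18, at summits 863 bp apart. Among 18 genes of fatty acid synthesis and desaturation, FADS1, a fatty acid desaturase, had the only site. It lay in an intron shared by FADS1 and FADS2 (chr11:61596121-61596582), with 22 SREBP2 fragments, 7 RORγ fragments and no RORγ region with XY018. H3K27ac had 63 and 59 fragments there, at a vehicle summit 1175 bp from the SREBP2 summit.

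The list of sterol efflux and LXR genes had sites at 3 of its 10 members (30%), against 6.07% of all protein-coding genes. This was the highest share of the 12 lists, on 10 genes. Each list also had more genes nearest to a kept co-bound site, from 60% here to 95%, than the 52.5% of all genes. Shares above 6.07%, here and in the other lists, thus stand beside a raised share at kept sites. Whether they are particular to the sites that lost calls was not tested. The site nearest to ABCA1, the pump that exports cholesterol to lipoproteins, was 63584 bp from its start, in an exon of CT70. It had 17 SREBP2 fragments, 9 and 5 RORγ fragments, and 29 and 52 H3K27ac fragments (19.4 to 41.6 and 38.8 to 68.2), whose intervals overlap narrowly. A second, in an intron of ABCA1, had 8 SREBP2 fragments, 16 RORγ fragments with vehicle and no region with XY018, and 16 and 33 H3K27ac fragments. There the RORγ and H3K27ac vehicle summits lay 357 and 294 bp from the SREBP2 summit. LPCAT3, a phospholipid acyltransferase, had a site 19034 bp from its start, in an intron of C1S. It held 19 SREBP2, 12 and 10 RORγ, and 21 and 37 H3K27ac fragments. PLTP, the phospholipid transfer protein gene, had a promoter site with 9 SREBP2 fragments and 19 and 20 H3K27ac fragments, but no RORγ region with XY018.

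Clock and ROR genes had sites at 2 of 20, both in promoters. PER1, a repressor of the clock, had a site with an SRE (the window printed above). SREBP2 had 12 fragments there, RORγ 4 and 6, and H3K27ac 20 and 17, at a vehicle summit 568 bp from the SREBP2 summit. At BHLHE41, another clock repressor, SREBP2 had 14 fragments and RORγ 6 and 5. H3K27ac had 62 and 108 fragments there, at summits 1471 bp apart.

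Sites were near 3 of 20 basal breast identity genes, namely EGFR, LAMB3 and TRIM29. The intronic EGFR site had 26 SREBP2 fragments, 10 and 9 RORγ fragments, and 45 and 30 H3K27ac fragments. The TRIM29 promoter site had 23, then 8 and 9, then 13 and 12, with the H3K27ac vehicle summit 655 bp from the SREBP2 summit. LAMB3, a laminin chain gene, had 13 SREBP2 fragments at a site where neither RORγ nor H3K27ac was called with XY018.

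Among G1 cell cycle genes, 4 of 19 had a site (CCND1, CDK6, CDKN1A and E2F2). CCND1, which encodes cyclin D1, had a promoter site of 7 SREBP2 fragments and an intronic one of 11. No RORγ XY018 region overlapped either site. RORγ had 11 and 35 vehicle fragments, at summits 220 and 445 bp from the SREBP2 summits. H3K27ac stayed at both, with 164 and 205 fragments at the promoter site and 24 and 20 at the intronic one. Its vehicle summits lay 1349 and 440 bp from the SREBP2 summits. At the promoter of CDK6, the kinase partner of cyclin D1, SREBP2 had 16 and RORγ 15 vehicle fragments, and neither had an XY018 region over the site. The RORγ summit lay 436 bp from the SREBP2 summit. H3K27ac had 161 and 182 fragments there, at summits 1403 bp apart.

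In the other lists the counts were 4 of 18 NF-kB and inflammatory genes (22.2%, the second highest share, with NFKBIA, NFKBIZ, RELB and TNFAIP2), 3 of 20 genes of epithelial polarity and junctions (CDH1, CLDN4 and PKP3), 3 of 17 nuclear receptor coregulators (CARM1 and CREBBP among them), 1 of 15 AP-1 factors (MAFG) and 1 of 16 genes of the TEAD and YAP pathway (TEAD4). The TNFAIP2 site had 14 SREBP2 fragments and 143 and 214 H3K27ac fragments, at a vehicle summit 947 bp from the SREBP2 summit. The CDH1 site, in an intron of the E-cadherin gene, was 51457 bp from the nearest SREBP2 XY018 region. The share over all protein-coding genes was 6.07%. With 10 to 21 genes a list, 1 gene moves each share by several points.

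Some genes, chosen for holding the most sites, held several of them. The sites made up between 6.67% (GSE1) and 50% (TMEM184B) of the co-bound sites of the genes named here, beside 6.26% of all active co-bound sites. Since the genes were chosen on these counts, the shares are descriptions. RXRA, the common partner of LXR and many other receptors, had 6 sites beside 29 kept ones, with 8 to 18 SREBP2 fragments. RORγ was called at 3 of the 6 and H3K27ac at 1. SBNO2, a regulator of inflammatory transcription, had 6 beside 23, with RORγ at 1 and H3K27ac at 4. INF2, BAIAP2, PIP5K1C, ANKRD11 and GSE1 had 4 each, beside 14 to 56 kept sites, as did PLXNA1, TMEM184B and a gene with no symbol, beside 4 to 18. All 4 sites of PIP5K1C kept RORγ and lost H3K27ac, whereas 3 of the 4 in BAIAP2 kept H3K27ac and none kept RORγ.

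Ratios far from 1 mostly joined different summits. At 231 sites with 80 or more H3K27ac fragments over both libraries, the lowest ratios were 0.0913 at TNK2 and PIM1, 0.0957 at PURA and 0.157 at ZMIZ1, and the highest were 16.4 at ARMC6, 14.2 at DEDD, 13.0 at SCRIB and 12.5 at CALML6. At these 8 the vehicle and XY018 summits lay between 637 and 2371 bp apart. The same held for RORγ, over 69 sites with 30 or more fragments. BCL3 (0.0906), TMEM250 (0.108) and PLEKHN1 (0.131) were lowest and MTSS2 (9.81), CYTH3 (8.29) and MTA1 (8.22) highest, with summits 663 to 3918 bp apart.

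With summits within 200 bp of each other, a condition added after the values were seen, the H3K27ac ratio ranged less widely over 178 sites. UBE2C, a ubiquitin-conjugating enzyme of mitosis, had the lowest ratio, 0.465, at its promoter, where vehicle gave 73 fragments (57.2 to 91.8) and XY018 gave 31 (21.1 to 44). OSBPL11, ZNF600 and FA2H followed at 0.494, 0.498 and 0.509. SOX13, a transcription factor gene, had the highest ratio, 2.05, with 85 (67.9 to 105.1) and 159 (135.2 to 185.7) fragments. Its H3K27ac vehicle summit lay 799 bp from the SREBP2 summit. The ABCA1 site in CT70 followed at 1.96, and LRP3 had 1.76. The intervals of the 2 libraries did not overlap at UBE2C, OSBPL11, ZNF600, FA2H and SOX13, which were chosen for these ratios. For RORγ, over 35 such sites, the lowest ratios were 0.474 near TAC4, 0.481 near FOXL3 and 0.516 near NPIPA1, and the highest were 1.82 near EXOSC2, 1.62 in SLC9A3 and 1.53 in EPAS1, and at each of these 6 the intervals of the 2 libraries overlapped.

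By position, 815 summits lay in introns, 233 in exons, 166 in UTRs and 251 between genes. A promoter window, from 1000 bp upstream to 100 bp downstream of a transcript start, overlapped 466 sites (31.8%, interval 29.4 to 34.3), against 61.4% of kept co-bound sites, 32.5% of the acetylated sites without RORγ that lost calls, and 24.7% of all SREBP2 vehicle regions. With regions of q of at most 1e-05 in every list, the sites picked anew numbered 1056, and the shares were 54.6% of these and 63.8% of the kept sites. With a reach of 5000 bp to either side the shares were 72.2% of the 1465 sites and 83.5% of kept co-bound sites. Within classes of SREBP2 fold the promoter share was 22 points lower than at kept co-bound sites (interval of the difference −25.10 to −18.90). More than 10 kb from any protein-coding start were 361 (24.6%), against 17.9%. Between 2.73% (chromosome 18) and 8.48% (chromosome 16) of a chromosome's co-bound sites were among the 1465.

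The DNA at these summits was less GC-rich than at kept co-bound sites. Median GC content of the summit windows was 65.7%, against 73.1% at kept co-bound sites and 64.2% over all SREBP2 vehicle regions. It was 63.2% at the acetylated sites without RORγ that lost calls and 53.7% at 1000 bp downstream of the sites themselves. The windows held a median of 8 CpG dinucleotides, against 20 at kept co-bound sites. Within classes of SREBP2 fold by promoter, GC content was lower than at kept co-bound sites by 6.0 points (difference −6.02, −6.44 to −5.60). GC content also affects how DNA is amplified and sequenced, and its part in the missing calls was not tested.

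Motifs were searched on both strands in the same windows, and a match is a description of the letters only. The SP motif GGGCGG stood in 436 of the windows (29.8%), against 62.5% at kept co-bound sites and 30.1% over all SREBP2 vehicle regions. Within classes of SREBP2 fold by promoter the difference was −17.06 points (−20.19 to −13.93), and −7.82 points (−11.05 to −4.59) with GC content in the classes. The ETS motif CCGGAA stood in 5.67% against 9.36%, with a difference of −2.45 points (−4.10 to −0.81), and −1.35 points (−3.11 to 0.42) with GC content.

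The AGGTCA half-site was in 229 windows (15.6%), against 6.37% at kept co-bound sites, and remained higher by 6.06 points (3.73 to 8.39) within classes and 4.10 points (1.45 to 6.76) with GC content. It was no more frequent than elsewhere, at 17.1% over all SREBP2 vehicle regions, 17.8% at the acetylated sites without RORγ that lost calls and 18.5% at 1000 bp downstream of the sites themselves. The form preceded by T, TAGGTCA, which contains AGGTCA, was in 8 windows (0.546%).

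The SRE TCACNCCAC was in 34 windows (2.32%), against 0.797% at kept co-bound sites and 2.42% over all SREBP2 vehicle regions. Its class difference, 0.93 points (−0.07 to 1.93), had an interval that includes 0. The AP-1 motif TGANTCA was in 54 (3.69%), against 1.29% at kept co-bound sites and 2.74% over all. Within classes it was 1.74 points higher (0.55 to 2.92), and 1.44 points higher (0.05 to 2.84) with GC content. Within 50 bp of the summit the difference was 0.55 points (−0.30 to 1.40), and at a q of at most 0.01 it was 0.70 points (−0.52 to 1.91), so both intervals include 0. In addition, 5.19% of the windows 1000 bp downstream held it. The RUNX motif TGTGGT was in 13.3% against 5.94% and 14.7% over all, a class difference of 4.13 points (1.91 to 6.34), and 2.04 points (−0.51 to 4.59) with GC content.

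The E-box CACGTG was in 5.67% against 5.73% (4.72% over all), the TEAD motif CATTCC in 6.08% against 4.45% (5.89%), the NF-Y motif CCAAT in 10.0% against 6.90% (10.8%), the NRF1 motif GCGCATGC in 1.57% against 1.07% (1.31%) and the forkhead motif TGTTTAC in 0.341% against 0.364% (0.514%). For these 5 the interval of the class difference included 0, but with GC content in the classes the E-box difference was −2.09 points (−4.06 to −0.12). The grainyhead motif AACCGGTT was in 0 of the 1465 windows, which allows a share of up to 0.251%, and in 0.0136% of all.

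**Figure D5:**
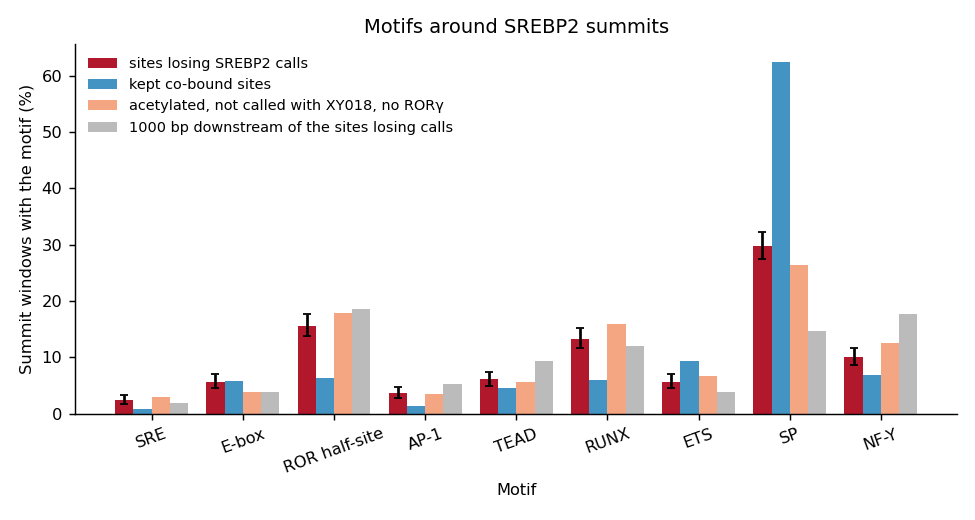
Share of windows, 100 bp to either side of the summit, holding each of 9 motifs (y axis, percent; motifs on the x axis) at the 1465 sites losing SREBP2 calls (red, with 95% exact binomial intervals), kept co-bound sites (blue), acetylated sites without RORγ that lost calls (pink) and 1000 bp downstream of the 1465 sites (grey). The SP motif falls from 62.5% at kept sites to 29.8%, and the AGGTCA half-site, at 15.6%, lies above the kept sites and below the downstream windows.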

How the data were processed

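Peak lists of 6 immunoprecipitated libraries of HCC70 cells, 1 per group of antibody and treatment as the labels give them, were analysed. The authors' processing notes list Bowtie2, MACS2 2.1.0, bedtools and hg19, whereas the methods of the study name BWA. Peaks were called per library, so each deposited list belongs to 1. The fold ratio, summit pileup plus 1 over local background plus 1, and the −log10 p and −log10 q values are those the authors deposited. The deposited score repeats the −log10 p and was not used. The H3K27ac lists hold part of longer call sets, by a rule not given in the sources used here.

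The members and the gene lists were chosen with earlier results of these data known. Fold and −log10 p were inverted under the Poisson model to fragments at the summit, and at least 99.9991% of the regions of each list gave a whole number (tolerance 5% of the step in −log10 p). The most common background scaled each library, and its quotient with the narrowest region width, taken as fragment length, gave the depth in tags per kb. Where several regions overlapped a site, the one of highest fold was taken in each library. A RORγ or H3K27ac call was kept at a site when the SREBP2 region of the site shared 1 bp with an XY018 region of that antibody. For the shares over all RORγ or H3K27ac vehicle regions, the vehicle region itself had to share 1 bp with one. Genes came from GENCODE 44 lifted to GRCh37, and no region ended past a chromosome. Shares have exact binomial and fragments exact Poisson 95% intervals, medians intervals from order statistics, and class differences, weighted by the sites in a class, normal ones. Intervals cover counting error only, and the sites, which can lie close together, were treated as independent.

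Sites named were the 8 of highest SREBP2 fold, up to 3 per gene list (12 lists, 209 genes), those in the 8 genes with the most, and the extremes of the H3K27ac (80 or more fragments) and RORγ (30 or more) ratios. SREBF1 had no window printed because it overlaps a UTR. Some sites and windows that this rule names are not reported here. Python 3.11.15, numpy 2.4.6, pandas 2.3.3, scipy 1.17.1 and pysam 0.24.0 were used, and the scripts were tested on simulated data. Alternatives were stricter q values, other overlaps, a wider gap, other classes and windows, and unscaled fragments.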

Additional observations from a re-analysis of the deposited data

How the results depend on the processing

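Under 44 alternatives set at the start and 31 chosen after seeing the data, 40 values stayed, 28 moved, 6 changed sign and 1 came to a ratio of exactly 1. Counted as stayed was the number of sites, 1465 as reported. It was 1046 at a q of at most 0.01, 1056 at 1e-05 and 1170 with an overlap of 50%, each setting picking its sites anew. The AP-1 difference at a q of at most 0.01 was also counted so, although its interval includes 0. Keeping regions of every list with a q of at most 0.01 moved the RORγ kept share to 47.8% and its difference from kept co-bound sites to −32.14 points, the H3K27ac kept share to 65.1%, the promoter share to 39.7% and GC content to 67.4%, and the AP-1 difference was 0.70 points (−0.52 to 1.91). A q of at most 1e-05 gave 60.2%, −22.82 points, 72.6% and 54.6% for the first 4 of these, with an H3K27ac ratio of 1.10. An overlap of 50% of the shorter region gave an H3K27ac kept share of 58.9% and a difference of −14.12 points. With no SREBP2 XY018 region within 1000 bp, 860 sites were left, with a RORγ kept share of 37.8% (difference −41.40), an H3K27ac difference of −7.94 and a promoter share of 26.9%. Without classes the differences were −52.83 points for RORγ and −26.51 for H3K27ac, and in classes of SREBP2 fold that of H3K27ac was −14.51. Joint classes gave −23.72 for RORγ and −3.00 for H3K27ac, and GC classes −2.57 for H3K27ac. Unscaled, the median ratios were 1 for RORγ and 0.955 for H3K27ac, which removes the excess over 1. A promoter reach of 5000 bp to either side gave a promoter share of 72.2%. Within 50 bp of the summit the AP-1 difference was 0.55 points (−0.30 to 1.40) and GC content 67.3%. With GC in the classes, the log2 ratio of H3K27ac, sites losing calls minus kept sites, was 0.055 over all sites, −0.07 in promoters and 0.14 elsewhere, the SP difference −7.82 points, and the TEAD, NF-Y and forkhead differences −0.082, −0.33 and 0.048 points. The cause of these shifts was not tested. No paired analysis was possible because each group has 1 library and no test was made, and none could be left out. The sites had 11 SREBP2 fragments at the median with vehicle, the peak lists give no XY018 level where no region was called, and the part of depth in the missing calls was not tested.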
